A study of Mus musculus with 21 samples.

Results

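The cartilage matrix and chondrocyte genes described here are 34 genes for the collagens, proteoglycans and other secreted proteins of cartilage, the enzymes that build its chondroitin sulfate chains, and a few receptors and regulators of the chondrocyte. They were chosen by name, from a table of 26852 Ensembl genes of which 26686 could be paired with a mouse symbol, and all 34 were found. A filter on low values left 12976 genes for testing, with 33 of the members among them. Matn1, a matrilin of growth cartilage, was the member below the filter.

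The cells were Nes-low mesenchymal cells of mouse bone marrow, the fraction with low green fluorescence in Nestin+ NSG mice, which carry green fluorescent protein under regulatory elements of Nestin. NSG mice are immunodeficient and accept human blood cells. Leukemia cells were given to unconditioned mice aged 8 to 12 weeks. The donors were HL60 and ML1, each a single human acute myeloid leukemia (AML) cell line made to release sLP-mCherry, a red protein that nearby cells take up. Cells that had taken up the protein are called ch+ and cells that had not ch-. In the study's account both were sorted from the same marrow, but no label ties the libraries, so the tests took no account of shared mice. Of the 21 libraries, 3 came from leukemia-free mice (ctrl). At an early stage of engraftment 6 held ch- cells and 6 held ch+ cells, and 6 libraries of a late stage had no sort on mCherry. Each leukemic group held 3 libraries from HL60 and 3 from ML1. For the late libraries of ML1 the labels conflict, since their treatment entry says unengrafted whereas titles and time point say late. They were kept as late, and late results of members are also given with the HL60 late libraries alone where leaving out ML1 changed a call or moved the named value by over 1.5 times.

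Cartilage is a gel of aggrecan, a proteoglycan loaded with chondroitin sulfate, held in a net of thin collagen fibrils. The fibrils are copolymers of collagen II and collagen XI, and collagen IX sits on their surface, where it meets matrilins, COMP and other adaptors. Chondrocytes make these proteins under the control of SOX9 with SOX5 and SOX6, whereas collagen XI chains are also made by bone-forming cells.

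Values are the regularized log2 values of normalized counts that the authors deposited, so a difference of 1 is a doubling. Regularization pulls low genes toward their mean, and changes of low genes are understated. The depth of the libraries is unknown, so precision rests on the spread between libraries. Libraries of 1 group correlated across genes at 0.935 to 0.976. A gene is called where limma gave an adjusted p under 0.1 over the 12976 genes. The labels do not say whether libraries came from separate mice, and p-values then measure only the spread between these libraries. The extraction text of the labels speaks of CD31+ endothelial cells, but endothelial markers were low in every group, with a mean of 4.43 to 5.55 per library, and Tie1 was below the filter. In sorted bulk cells, fewer cells of a type and less RNA per cell cannot be told apart.

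The promoters of Col9a1, Matn3, Col11a1 and Col11a2 are shown because the first 2 genes were much lower in ch+ than in ch- cells and the collagen XI genes little lower. The 150 bases before the RefSeq transcription start (GRCm38.p6, plus strand) are given 5′ to 3′, with capitals marking GGGCGG or CCGCCC, the GC box that Sp1 binds, and TATAAA.
Col9a1 (chr1:24177460-24177609): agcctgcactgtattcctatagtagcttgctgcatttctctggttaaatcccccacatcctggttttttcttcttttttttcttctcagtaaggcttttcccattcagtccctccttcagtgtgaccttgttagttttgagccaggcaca
Matn3 (chr12:8947779-8947928): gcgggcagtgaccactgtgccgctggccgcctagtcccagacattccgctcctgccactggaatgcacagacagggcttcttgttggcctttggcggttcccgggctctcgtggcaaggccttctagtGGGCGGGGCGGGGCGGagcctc
Col11a1 (chr3:114030390-114030539): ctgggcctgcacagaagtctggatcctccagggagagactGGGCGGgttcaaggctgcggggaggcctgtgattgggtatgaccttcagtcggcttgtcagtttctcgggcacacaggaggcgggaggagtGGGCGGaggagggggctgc
Col11a2 (chr17:34038988-34039137): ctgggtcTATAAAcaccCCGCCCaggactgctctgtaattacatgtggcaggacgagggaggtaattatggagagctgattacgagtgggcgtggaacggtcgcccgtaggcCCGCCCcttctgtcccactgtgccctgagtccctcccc
The Col9a1 stretch held none of these letters, and each of the others shown held at least 1 GC box. The same stretch of Col9a2, a collagen IX gene that was also much lower in ch+ than in ch- cells, is not shown and held 2 GC boxes.

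RefSeq windows were at hand for 25 of the 34 members, 31 windows in all, against 32851 windows of all genes. In the 250 bases before the start, GGGCGG or its other strand CCGCCC was found in 20 of the 31 member windows (64.5%) and in 32.7% of all windows. ACAAT or its other strand ATTGT, a core that SOX proteins bind, was in 4 of the 31 (12.9%) and in 27.7% of all windows. TATAAA on the strand of the gene was in 2 of the 31 (6.45%) and in 7.59% of all windows. These are matches of letters, and windows of 1 gene can overlap.

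Cartilage genes were lower in early ch+ and in late cells than in ctrl. In early ch- cells most were also lower than in ctrl, but by less. In late against ctrl, 27 of the 33 tested members were called lower and 0 higher, where 11.4% of all genes tested were called lower. Their median log2 difference was −2.36, against 0.02 over all genes. With the HL60 late libraries alone these 27 members were all still called lower, where 6.67% of all genes were, but the median was −1.83 and 17 of the 27 moved by over 1.5 times. In early ch+ against ctrl, 23 members were called lower and 0 higher, where 2.75% of all genes were called lower, and the median was −2.03. In early ch- against ctrl, only Prg4 and Xylt1 were called, both lower, where 0.786% of all genes were called lower. Of the 33 members 31 were below ctrl in their mean, and the median was −0.58, against 0.01 over all genes. In early ch+ against early ch-, 21 members were called lower and 2 higher, where 2.68% of all genes were called lower and 3.58% higher, and the median was −1.57. The comparisons with ctrl share the 3 ctrl libraries, and those with ch+ share its libraries.

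**Figure D1:**
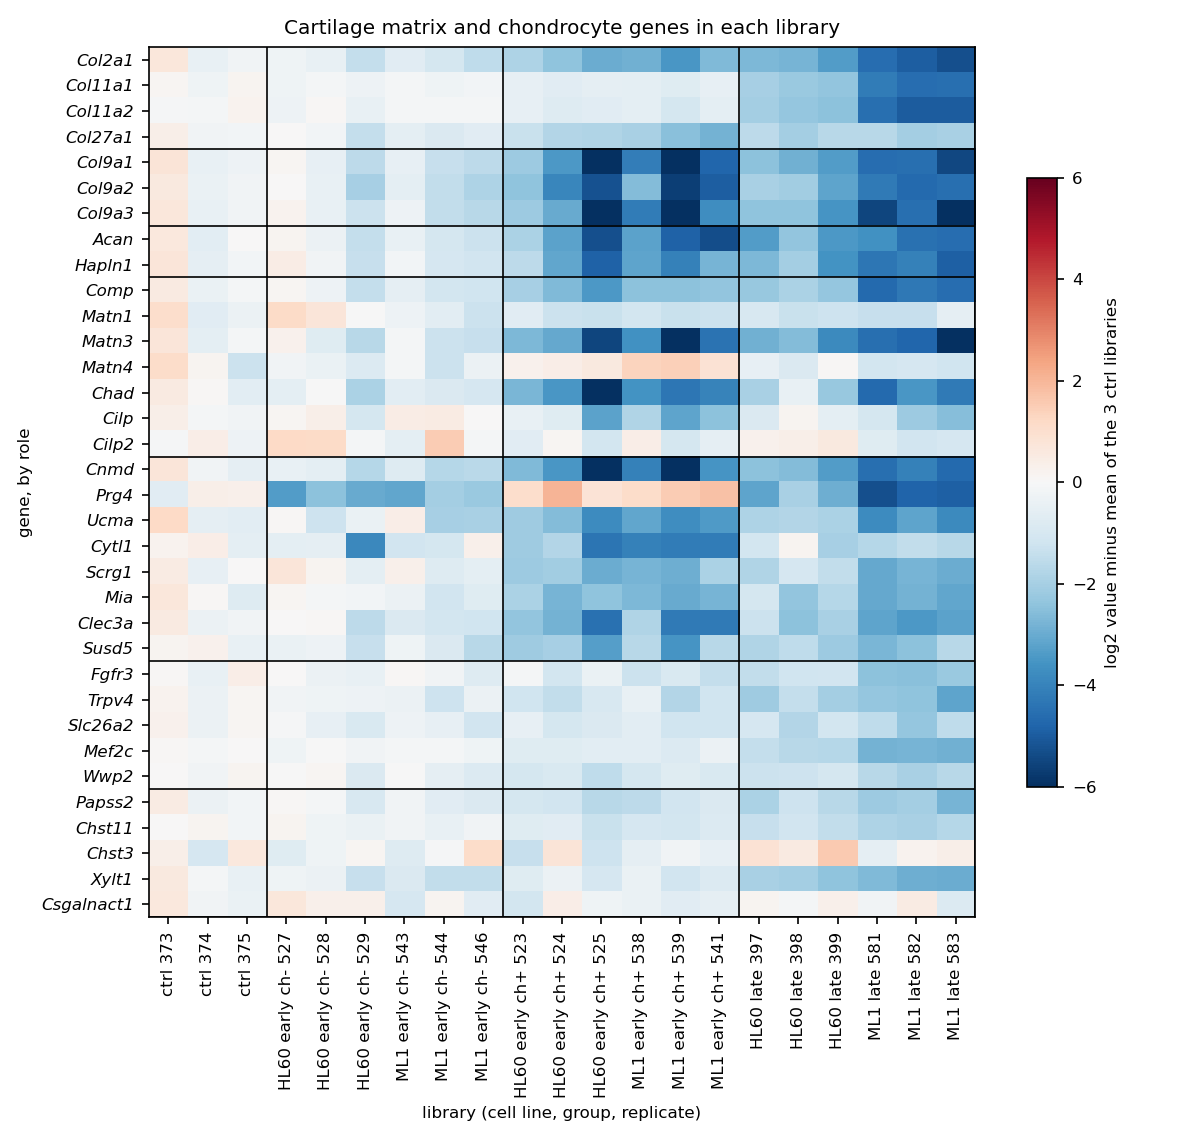
Heat map of the 34 members (rows, by role) in the 21 libraries (columns, by group and cell line), coloured by the regularized log2 value minus the mean of the 3 ctrl libraries. Most rows are well below ctrl in ch+ and late, Col11a1 and Col11a2 are pale in ch+ and low in late, and Prg4 and Matn4 are above ctrl in ch+.

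The mean log2 level over the 34 members was 9.69 ± 0.38 in ctrl (SD, n = 3), 9.10 ± 0.39 in ch- (SD, n = 6), 7.66 ± 0.54 in ch+ (SD, n = 6) and 7.32 ± 0.74 in late (SD, n = 6). The ch- libraries lay between 8.63 and 9.63 and the ch+ libraries between 6.998 and 8.33, so these groups did not overlap. HL60 early ch- 529 and HL60 early ch+ 525 were the lowest of their groups. In late, the HL60 libraries lay at 7.98 ± 0.18 (SD, n = 3) and the ML1 libraries at 6.65 ± 0.13 (SD, n = 3).

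Among the fibrillar collagens, Col2a1, the chain of collagen II and the main collagen of cartilage, fell in ch+ and in late. Its log2 level was 16.96, 15.83 and 16.08 in the ctrl libraries. It was 14.76 to 16.02 in ch- (median 15.42), 12.78 to 14.44 in ch+ (median 13.53) and 11.02 to 13.60 in late (median 12.32). Every ch+ library lay below every ch- library. Col2a1 was 3.52-fold lower in ch+ than in ch- (log2 difference −1.82, SE 0.35, limma adjusted p = 0.00103) and 6.57-fold lower than in ctrl (−2.72, SE 0.43, adjusted p = 0.00015). Col27a1, a chain of a minor fibrillar collagen of cartilage, stood at 11.55, 10.99 and 11.02 in ctrl. It was 9.77 to 11.22 in ch- (median 10.55), 8.34 to 9.85 in ch+ (median 9.30) and 9.15 to 9.62 in late (median 9.39), so that HL60 ch+ 523 at 9.85 was above HL60 ch- 529 at 9.77. Col27a1 fell 2.68-fold from ch- to ch+ (−1.42, SE 0.21, limma adjusted p = 3.33e-05) and 4.09-fold from ctrl to ch+ (−2.03, SE 0.26, adjusted p = 8.93e-06).

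The collagen XI chains were the ones that kept most of their level in ch+. Col11a1 was at 15.57, 15.20 and 15.64 in ctrl, 15.16 to 15.37 in ch- (median 15.26), 14.72 to 14.99 in ch+ (median 14.90) and 10.92 to 13.48 in late (median 12.19). Col11a2 was at 14.23, 14.18 and 14.52 in ctrl, 13.88 to 14.38 in ch- (median 14.19), 13.27 to 13.84 in ch+ (median 13.68) and 9.30 to 12.29 in late (median 10.82). For both chains all 6 ch+ libraries lay below all 6 ch- libraries and all 3 ctrl libraries, but the distance was small. Col11a1 differed between ch+ and ch- by −0.39 (SE 0.31, 95% interval −1.03 to 0.25, limma adjusted p = 0.599) and Col11a2 by −0.52 (SE 0.36, 95% interval −1.26 to 0.22, adjusted p = 0.526). Against ctrl the differences were −0.59 (SE 0.38, 95% interval −1.37 to 0.19, adjusted p = 0.467) and −0.69 (SE 0.44, 95% interval −1.59 to 0.22, adjusted p = 0.466).

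Those intervals use a spread shared by all groups, and the late libraries spread most (SD 1.23 for Col11a1 and 1.43 for Col11a2, against 0.11 and 0.21 in ch+). When only the 2 groups compared were fitted, the same small differences were called, with an adjusted p of 0.000757 for Col11a1 and 0.000641 for Col11a2 in ch+ against ch-, and of 0.00116 and 0.000711 in ch+ against ctrl. The call on the collagen XI chains in ch+ thus depended on the fit, while the size of the difference did not. In late these chains fell 9.92-fold (Col11a1, log2 difference −3.31, SE 0.38, limma adjusted p = 3.1e-07) and 11.7-fold (Col11a2, −3.55, SE 0.44, adjusted p = 8.97e-07) against ctrl. With the HL60 late libraries alone the falls were 4.59-fold for Col11a1 and 4.80-fold for Col11a2.

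The 3 chains of collagen IX, the collagen on the fibril surface, fell most among the member collagens in ch+. Col9a1 was at 11.83, 10.62 and 10.76 in ctrl, 9.50 to 11.17 in ch- (median 10.12), 4.39 to 8.89 in ch+ (median 6.62) and 5.59 to 8.60 in late (median 7.13). No ch+ or late library reached the lowest ch- library. Col9a1 was 13.3-fold lower in ch+ than in ch- (log2 difference −3.74, SE 0.56, limma adjusted p = 3.28e-05) and 24.9-fold lower than in ctrl (−4.64, SE 0.69, adjusted p = 6.14e-05). Col9a2 was at 9.85, 8.89 and 9.06 in ctrl, 7.28 to 9.28 in ch- (median 8.23), 3.60 to 6.84 in ch+ (median 4.84) and 4.62 to 7.33 in late (median 5.56). Its ch+ and ch- libraries did not overlap, and the difference was 8.43-fold (−3.08, SE 0.52, adjusted p = 0.000177). Against ctrl it was 17.5-fold lower in ch+ (−4.13, SE 0.64, limma adjusted p = 0.000109). Col9a3 was at 11.42, 10.29 and 10.54 in ctrl, 9.10 to 10.98 in ch- (median 9.89), 4.03 to 8.55 in ch+ (median 6.79) and 4.51 to 8.33 in late (median 6.71). Here too the early groups were apart, by 11.9-fold (−3.57, SE 0.64, limma adjusted p = 0.00035), and ch+ was 21.03-fold below ctrl (−4.39, SE 0.78, adjusted p = 0.000583). The ch+ libraries spread widely, with HL60 525 and ML1 539 lowest for both Col9a1 and Col9a3.

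**Figure D2:**
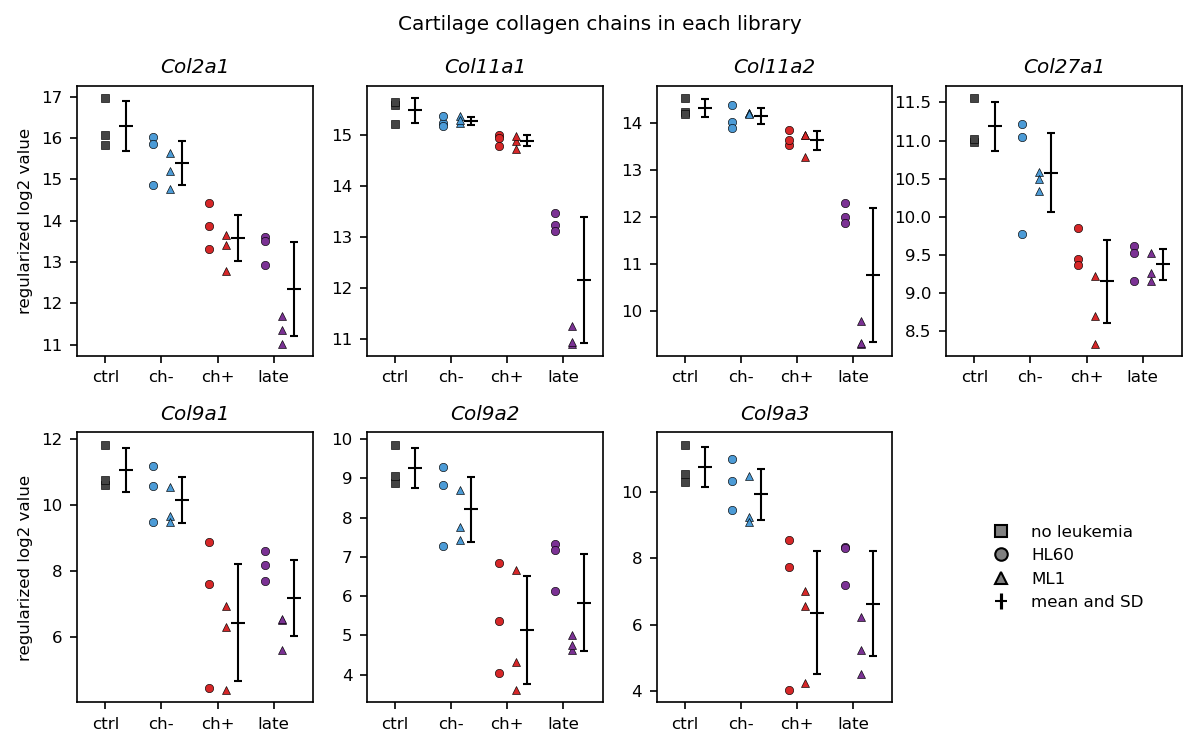
Regularized log2 value of the 7 collagen chains in each library by group, with squares for libraries without leukemia, circles for HL60 and triangles for ML1, and the mean and SD of each group. The group means of Col11a1 and Col11a2 stay close to ctrl in ch+ and drop in late, whereas the means of the collagen IX chains are more than 4 below ctrl in ch+.

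The ratios between chains therefore shifted in ch+ cells. The log2 level of Col2a1 minus that of Col11a1, with no correction for length, was 0.82 ± 0.50 in ctrl (SD, n = 3), 0.12 ± 0.50 in ch- (SD, n = 6), −1.30 ± 0.50 in ch+ (SD, n = 6) and 0.19 ± 0.23 in late (SD, n = 6). Col2a1 minus Col9a1 was 7.15 ± 1.29 in ch+ (SD, n = 6), against 5.22 ± 0.10 in ctrl (SD, n = 3), 5.23 ± 0.24 in ch- (SD, n = 6) and 5.16 ± 0.23 in late (SD, n = 6). By these means over both lines Col2a1 stood below Col11a1 in ch+ alone, and further above Col9a1 in ch+ than in any other group. With the lines apart, Col2a1 minus Col11a1 in ch- was 0.33 ± 0.58 for HL60 (SD, n = 3) and −0.09 ± 0.40 for ML1 (SD, n = 3). Col11a1 minus Col11a2 moved little, from 1.13 ± 0.11 in ch- to 1.40 ± 0.20 in late.

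The aggrecan network fell as a pair. Acan, which encodes aggrecan, was at 12.41, 11.16 and 11.83 in ctrl, 10.37 to 11.95 in ch- (median 11.05), 6.49 to 9.91 in ch+ (median 7.79) and 7.24 to 9.43 in late (median 8.28). No ch+ library reached a ch- library, and Acan was 9.24-fold lower in ch+ (log2 difference −3.21, SE 0.44, limma adjusted p = 8.68e-06). Hapln1, the link protein that fastens aggrecan to hyaluronan, was at 12.90, 11.61 and 11.99 in ctrl, 10.78 to 12.61 in ch- (median 11.56), 7.29 to 10.58 in ch+ (median 9.04) and 7.25 to 10.13 in late (median 8.33). It was 6.42-fold lower in ch+ than in ch- (−2.68, SE 0.43, limma adjusted p = 9.32e-05), again without overlap. Against ctrl, Acan was 15.5-fold (−3.95, SE 0.54, limma adjusted p = 1.82e-05) and Hapln1 9.61-fold lower in ch+ (−3.26, SE 0.53, adjusted p = 0.000207).

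Of the 6 tested adaptor and pericellular glycoproteins, 4 fell and Matn4 rose in ch+ against ch-. Matn3, a matrilin that links collagen IX to other matrix proteins, was at 10.85, 9.51 and 9.97 in ctrl, 8.45 to 10.38 in ch- (median 9.11), 3.87 to 7.42 in ch+ (median 6.09) and 3.73 to 7.49 in late (median 5.94). It was 10.8-fold lower in ch+ than in ch- (log2 difference −3.43, SE 0.54, limma adjusted p = 5.97e-05) and 19.1-fold lower than in ctrl (−4.25, SE 0.66, adjusted p = 0.000114), with no overlap of ch+ and ch- libraries. Chad, or chondroadherin, a leucine-rich protein that binds collagen II, was at 13.21, 12.78 and 12.06 in ctrl, 10.80 to 12.67 in ch- (median 11.93), 6.69 to 9.96 in ch+ (median 8.88) and 8.00 to 12.22 in late (median 9.80). It was 9.17-fold lower in ch+ than in ch- (−3.20, SE 0.51, limma adjusted p = 6.57e-05) and 16.3-fold lower than in ctrl (−4.02, SE 0.62, adjusted p = 0.000105). Of the late libraries of Chad, only HL60 398 at 12.22 lay in the ch- range, and no ch+ library did.

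Comp, a pentameric protein that helps fibrils assemble, was at 12.06, 11.16 and 11.41 in ctrl, 10.13 to 11.64 in ch- (median 10.73), 8.10 to 9.53 in ch+ (median 9.07) and 6.88 to 9.64 in late (median 8.23). It was 3.55-fold lower in ch+ than in ch- (log2 difference −1.83, SE 0.38, limma adjusted p = 0.00228) and 5.93-fold lower than in ctrl (−2.57, SE 0.47, adjusted p = 0.00072). Cilp, a protein of the cartilage intermediate layer, was at 7.93, 7.46 and 7.38 in ctrl, 6.55 to 8.07 in ch- (median 7.82), 4.37 to 7.16 in ch+ (median 5.46) and 5.04 to 7.73 in late (median 6.63). Its early groups overlapped, through HL60 ch- 529 and 2 HL60 ch+ libraries. Cilp was 4.08-fold lower in ch+ than in ch- (−2.03, SE 0.44, limma adjusted p = 0.00346) and 3.92-fold lower than in ctrl (−1.97, SE 0.54, adjusted p = 0.031). Without ctrl 373, the second of these was −1.80 with an adjusted p of 0.14.

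Matn4, a matrilin of many connective tissues, was the adaptor that went the other way. It stood at 5.69, 4.74 and 3.31 in ctrl, 3.28 to 4.48 in ch- (median 4.21), 4.83 to 6.02 in ch+ (median 5.33) and 3.37 to 4.65 in late (median 3.65). All ch+ libraries were above all ch- and all late libraries, and Matn4 was 2.55-fold higher in ch+ than in ch- (log2 difference 1.35, SE 0.34, limma adjusted p = 0.0131). Against ctrl, whose libraries spread widely, the difference of ch+ was 0.82 (95% interval −0.02 to 1.66, adjusted p = 0.319), and without ctrl 373 it was 1.38 with an adjusted p of 0.0894. Cilp2, a relative of Cilp, differed by −0.97 between ch+ and ch- (limma adjusted p = 0.174), and by −1.19 with an adjusted p of 0.0795 without ML1 ch- 543. Matn1 had a median of 3.17 in ctrl, and ranged over 2.22 to 4.65 among ch- and 2.16 to 2.85 among ch+ libraries, with late libraries at 2.12 to 2.98, and was not tested.

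Of the 8 secreted chondrocyte proteins, 7 fell in ch+ against both ctrl and ch-, and Prg4 took a course of its own. Prg4, which encodes lubricin, the lubricant of the joint surface, was at 16.11, 17.15 and 17.09 in ctrl, 13.44 to 14.73 in ch- (median 14.04), 17.61 to 18.83 in ch+ (median 18.10) and 11.50 to 14.85 in late (median 12.79). The ch+ libraries were above all others and the ch- libraries below all ctrl libraries. Prg4 was 17.1-fold higher in ch+ than in ch- (log2 difference 4.09, SE 0.39, 95% interval 3.31 to 4.88, limma adjusted p = 1.94e-08), and 6.51-fold lower in ch- than in ctrl (−2.70, SE 0.47, adjusted p = 0.00121). In late it was 14.3-fold below ctrl (−3.84, SE 0.47, limma adjusted p = 7.78e-07) and 37.5-fold below ch+ (−5.23, SE 0.39, adjusted p = 4.44e-11), and with the HL60 late libraries alone 6.41-fold and 16.8-fold. Against ctrl, Prg4 in ch+ differed by 1.39 (95% interval 0.42 to 2.36, limma adjusted p = 0.102), and the adjusted p was 0.000154 with only those groups fitted and 0.0906 without HL60 ch+ 525. The same call was gained without any 1 of the late libraries, with an adjusted p between 0.0335 and 0.0984. The log2 level of Prg4 minus that of Acan went from 3.02 ± 1.00 in ch- (SD, n = 6) to 10.33 ± 1.51 in ch+ (SD, n = 6).

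Cnmd, or chondromodulin, an inhibitor of vessel growth in cartilage, was at 11.52, 10.56 and 10.26 in ctrl, 9.05 to 10.33 in ch- (median 9.57), 4.38 to 8.12 in ch+ (median 6.98) and 6.13 to 8.34 in late (median 7.07). It was 9.26-fold lower in ch+ than in ch- (log2 difference −3.21, SE 0.48, limma adjusted p = 2.93e-05) and 20.5-fold lower than in ctrl (−4.36, SE 0.58, adjusted p = 1.48e-05), with no overlap. Clec3a, a C-type lectin of cartilage, was at 8.29, 7.41 and 7.53 in ctrl, 6.16 to 7.81 in ch- (median 6.76), 3.28 to 5.95 in ch+ (median 4.21) and 4.28 to 6.43 in late (median 4.92). Its ch+ level was 5.83-fold below ch- (−2.54, SE 0.43, limma adjusted p = 0.000199) and 9.98-fold below ctrl (−3.32, SE 0.53, adjusted p = 0.000175). Susd5, a sushi-domain protein, was at 9.58, 9.69 and 8.98 in ctrl, 7.75 to 9.16 in ch- (median 8.78), 5.87 to 7.76 in ch+ (median 7.35) and 6.69 to 7.90 in late (median 7.43). It fell less, 2.97-fold from ch- (−1.57, SE 0.31, limma adjusted p = 0.00111) and 5.23-fold from ctrl (−2.39, SE 0.38, adjusted p = 0.000132), and the highest ch+ library just passed the lowest ch- library.

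The others were expressed at lower levels, where regularization weighs more. Scrg1 was at 6.46, 5.45 and 5.98 in ctrl, 5.19 to 6.68 in ch- (median 5.75), 2.98 to 4.06 in ch+ (median 3.49) and 2.89 to 4.95 in late (median 3.65). Mia, a small secreted protein of chondrocytes, was at 6.88, 6.26 and 5.43 in ctrl, 5.03 to 6.32 in ch- (median 5.92), 3.14 to 4.31 in ch+ (median 3.44) and 3.09 to 5.12 in late (median 3.58). Both were apart between the early groups, by 5.07-fold for Scrg1 (log2 difference −2.34, SE 0.36, limma adjusted p = 3.93e-05) and 4.63-fold for Mia (−2.21, SE 0.34, adjusted p = 4.77e-05). Ucma, a protein of the upper growth plate, was at 7.64, 5.89 and 5.83 in ctrl, 4.48 to 6.85 in ch- (median 5.65), 2.68 to 4.30 in ch+ (median 3.19) and 2.66 to 4.70 in late (median 3.91), and was 4.89-fold lower in ch+ than in ch- (−2.29, SE 0.46, limma adjusted p = 0.00141). Against ctrl, ch+ was lower by 5.55-fold for Scrg1 (−2.47, SE 0.44, limma adjusted p = 0.000568), by 6.09-fold for Mia (−2.61, SE 0.42, adjusted p = 0.000177) and by 8.76-fold for Ucma (−3.13, SE 0.56, adjusted p = 0.000637).

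Cytl1, a cytokine-like protein of chondrocytes, was higher in late cells, which were not sorted on mCherry, than in ch+ cells. It was at 7.95, 8.12 and 7.13 in ctrl, 3.86 to 8.03 in ch- (median 6.93), 3.34 to 5.98 in ch+ (median 3.62) and 5.76 to 7.90 in late (median 6.16). HL60 ch- 529, at 3.86, lay inside the ch+ range. Cytl1 was 4.94-fold lower in ch+ than in ch- (log2 difference −2.31, SE 0.53, limma adjusted p = 0.00616) and 10.9-fold lower than in ctrl (−3.45, SE 0.65, adjusted p = 0.00101). In late it was 4.48-fold higher than in ch+ (2.16, SE 0.53, limma adjusted p = 0.00363) and differed from ctrl by −1.29 (SE 0.65, adjusted p = 0.196).

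**Figure D3:**
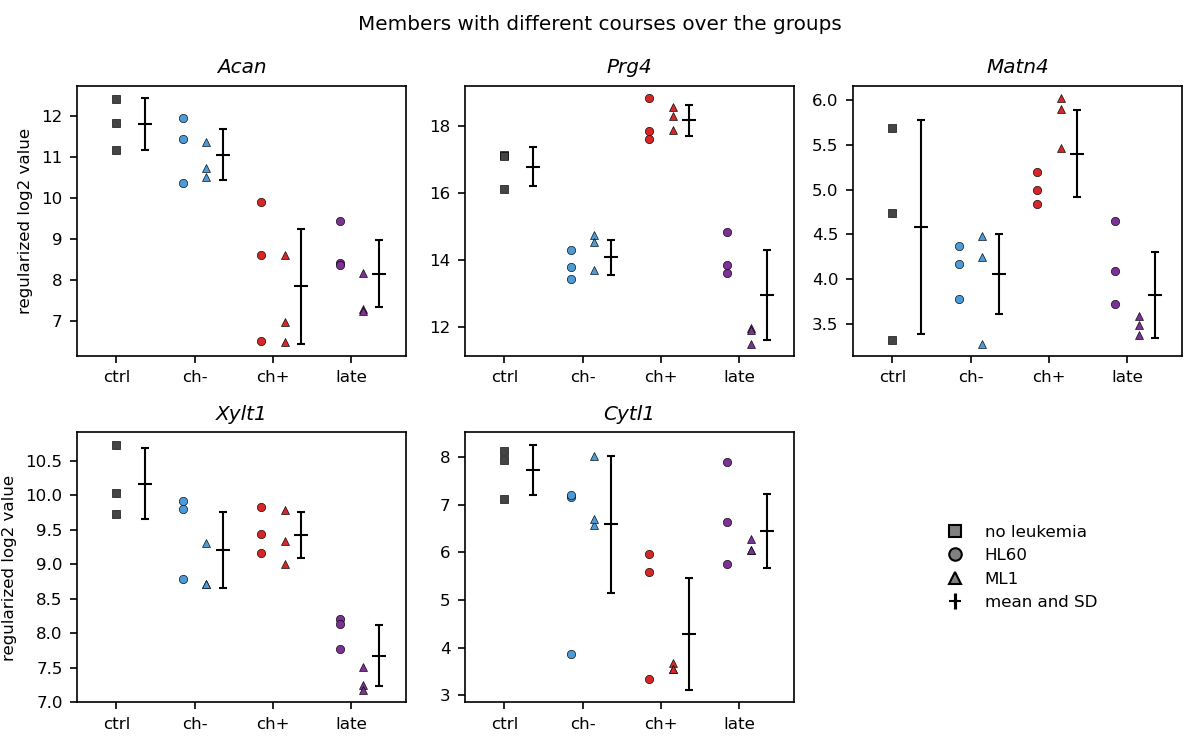
Regularized log2 value of Acan, Prg4, Matn4, Xylt1 and Cytl1 in each library by group, with squares for libraries without leukemia, circles for HL60 and triangles for ML1, and the mean and SD of each group. Prg4 and Matn4 are highest in ch+, Acan is low in ch+ and late, and Cytl1 is lowest in ch+.

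Among the receptor, channel, transporter and regulator genes, Wwp2, a ubiquitin ligase that acts with SOX9, was the one called in both early comparisons. It was at 9.74, 9.49 and 9.87 in ctrl, 8.83 to 9.83 in ch- (median 9.42), 8.16 to 8.99 in ch+ (median 8.72) and 7.77 to 8.62 in late (median 8.22). It was 1.60-fold lower in ch+ than in ch- (log2 difference −0.68, SE 0.18, limma adjusted p = 0.0233) and 2.05-fold lower than in ctrl (−1.03, SE 0.22, adjusted p = 0.00456), with overlap between the early groups. Trpv4, a calcium channel that responds to load, differed from ctrl by −1.17 in ch+ (limma adjusted p = 0.031), and by −1.06 (adjusted p = 0.141) without ctrl 373 and −1.11 (adjusted p = 0.117) without ctrl 375. Slc26a2, the sulfate transporter of chondrocytes, differed by −0.90 (limma adjusted p = 0.0261), and by −0.77 (adjusted p = 0.155) and −0.85 (adjusted p = 0.105) without the same libraries. Between ch+ and ch-, Trpv4 differed by −0.72 (limma adjusted p = 0.137), or −0.87 with an adjusted p of 0.0495 without ML1 ch- 544, and an adjusted p of 0.0605 without ML1 ch+ 538 and 0.0936 without ML1 late 583. Slc26a2 differed by −0.32 (limma adjusted p = 0.447).

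Fgfr3, the receptor that restrains growth plate chondrocytes, and Mef2c, a transcription factor of chondrocyte hypertrophy that other cells use as well, were not called in ch+. Fgfr3 in ch+ differed from ctrl by −0.87 (95% interval −1.52 to −0.22, limma adjusted p = 0.135) and Mef2c by −0.64 (95% interval −1.12 to −0.17, adjusted p = 0.133). With only those groups fitted the adjusted p was 0.0951 for Fgfr3 and 0.00287 for Mef2c, and without HL60 ch+ 523 Fgfr3 reached −1.03 with an adjusted p of 0.0629. Mef2c was called without HL60 late 397 (limma adjusted p = 0.0764) or ML1 late 583 (adjusted p = 0.0937). Mef2c was at 11.57 to 11.77 in ch- and 11.01 to 11.48 in ch+, without overlap. All 5 genes of this role were called lower in late, from −1.48 for Wwp2 to −2.25 for Trpv4.

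Chondroitin sulfate synthesis moved less than the core proteins. Papss2, which makes the sulfate donor, was at 11.27, 10.41 and 10.62 in ctrl, 9.81 to 10.86 in ch- (median 10.30), 9.11 to 9.88 in ch+ (median 9.62) and 7.98 to 9.53 in late (median 8.80). Chst11, a sulfotransferase of chondroitin, was at 11.21, 11.35 and 11.02 in ctrl, 10.73 to 11.37 in ch- (median 10.95), 9.85 to 10.52 in ch+ (median 10.28) and 9.25 to 10.03 in late (median 9.60). The early libraries were apart for Chst11 and overlapped for Papss2. In ch+ against ch-, Papss2 was 1.72-fold (log2 difference −0.78, SE 0.21, limma adjusted p = 0.0252) and Chst11 1.64-fold lower (−0.71, SE 0.14, adjusted p = 0.00109). Against ctrl, Papss2 was 2.36-fold (−1.24, SE 0.26, limma adjusted p = 0.00333) and Chst11 1.92-fold lower (−0.94, SE 0.17, adjusted p = 0.000672).

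Xylt1, which starts the chain by adding xylose to the core protein, was called lower in ch- and late but not in ch+. It was at 10.73, 10.04 and 9.73 in ctrl, 8.71 to 9.92 in ch- (median 9.05), 9.001 to 9.83 in ch+ (median 9.39) and 7.17 to 8.21 in late (median 7.64). Its difference from ctrl was −0.96 in ch- (limma adjusted p = 0.0971), and −0.74 in ch+ (95% interval −1.31 to −0.17, adjusted p = 0.155). The Xylt1 call in ch- was lost without ctrl 373 or 374, HL60 ch- 529, ML1 ch- 543, 544 or 546, HL60 ch+ 523 or 525, ML1 ch+ 538 or 541, HL60 late 399 or ML1 late 581 (limma adjusted p 0.102 to 0.392). Between ch+ and ch- it was 0.22 (95% interval −0.25 to 0.69, limma adjusted p = 0.715). Chst3, a sulfotransferase for another position of the sugar, and Csgalnact1, which begins the chondroitin chain proper, were low and not called in ch+. Their ch+ differences from ctrl were −0.51 (95% interval −1.49 to 0.47, limma adjusted p = 0.645) and −0.43 (95% interval −1.20 to 0.34, adjusted p = 0.616). Cilp2 was the last of the 10 members not called in ch+ against ctrl (−0.47, 95% interval −1.41 to 0.48, limma adjusted p = 0.667). The intervals of Chst3, Csgalnact1 and Cilp2 reach below −1, so a log2 difference of that size could not be told from none.

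Of 24 further genes of chondroitin sulfate synthesis, all tested, 1 was called lower and 1 higher in ch+ against ch-, shares near the 2.68% and 3.58% of all genes, and their median difference was −0.08. The lowest difference was Slc35b3 at −0.77 (limma adjusted p = 0.117) and the highest Ugdh, which makes the glucuronic acid donor, at 0.57 (adjusted p = 0.0275). Of 10 tested related matrix genes out of 12, 4 were called lower and 1 higher, from Snorc at −2.35 (limma adjusted p = 0.00177) to Ecm1 at 1.32 (adjusted p = 5.24e-06). Of 8 tested regulators and growth plate genes out of 13, 3 were called lower and 1 higher, with Col10a1, the collagen of hypertrophic cartilage, lowest at −4.14 (limma adjusted p = 3.7e-05).

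The SOX genes that drive cartilage matrix diverged. Sox9 lay between 6.47 and 8.12 among ch+ libraries and between 8.55 and 9.71 among ch- libraries (ctrl 9.44 to 9.71, late 5.93 to 8.20), and was lower in ch+ than in ch- by −1.81 on the log2 scale (limma adjusted p = 8.22e-05). Sox5 lay between 8.84 and 9.45 among ch+ libraries and between 5.84 and 8.57 among ch- libraries (ctrl 8.94 to 9.05, late 6.60 to 7.50), and was the highest of its list in ch+ against ch- at 1.64 (limma adjusted p = 0.000166). Sox6 lay between 6.94 and 8.38 among ch+ libraries and between 6.39 and 7.97 among ch- libraries (ctrl 8.56 to 8.72, late 5.50 to 7.17), with a difference of 0.06 between ch+ and ch- (limma adjusted p = 0.95). Sox9 thus went with the collagen IX and aggrecan genes in direction, and Sox5 with Prg4 and Matn4.

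The 6 members not called in late against ctrl were Matn4 (−0.77, limma adjusted p = 0.233), Cilp (−1.18, adjusted p = 0.146), Cilp2 (−0.28, adjusted p = 0.769), Csgalnact1 (−0.03, adjusted p = 0.971), Chst3 (0.49, adjusted p = 0.566) and Cytl1. Matn4 was called without ctrl 375 (−1.40, limma adjusted p = 0.0246), Cilp without HL60 late 398 (−1.44, adjusted p = 0.061), and Cytl1 without that library (−1.58, adjusted p = 0.0964) or HL60 ch- 529 (adjusted p = 0.0933). Cilp differed from ctrl by −0.44 (limma adjusted p = 0.744) and Cilp2 by 0.40 (adjusted p = 0.751) with the HL60 late libraries alone. The differences of the other members ran from −1.48 for Wwp2 to −4.16 for Matn3, which was 17.9-fold below ctrl (SE 0.66, limma adjusted p = 2.59e-05), or 8.64-fold with the HL60 late libraries alone. These falls depend on the scaling. Unlogged values summed to 7264989 to 9022185 per late library and 11862642 to 14229380 per ctrl library. After rescaling to the same total, the median of all genes in late against ctrl moved from 0.02 to 0.71, so the falls would be smaller. Among the collagens of late cells, Col9a3 was 17.3-fold, Col2a1 15.4-fold, Col9a1 14.7-fold and Col9a2 10.8-fold below ctrl, and Col27a1 3.51-fold. With the HL60 late libraries alone Col9a3 was 6.99-fold, Col2a1 7.71-fold, Col9a1 7.48-fold, Col9a2 5.24-fold and Col27a1 3.37-fold below ctrl.

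Late cells and ch+ cells differed in which cartilage genes were low. In late against ch+, 12 members were called lower and 2 higher, where 10.9% of all genes were called lower and 8.79% higher, and the median over the members was 0.19. The fall from ch+ was large for Prg4, for Col11a2 (7.30-fold, log2 difference −2.87, SE 0.36, limma adjusted p = 5.86e-07) and for Col11a1 (6.59-fold, −2.72, SE 0.31, adjusted p = 1.29e-07). Mef2c, Trpv4, Matn4, Col2a1, Papss2, Xylt1, Slc26a2, Chst11 and Fgfr3 were called lower as well, by −0.64 to −1.75. Cytl1 and Chst3 were called higher, the second by 1.00 (limma adjusted p = 0.085), a call lost without HL60 ch+ 523 or 525, ML1 ch+ 538 or 541, any HL60 late library or ML1 late 583 (adjusted p 0.109 to 0.219). With all 6 late libraries none of the collagen IX chains, Acan or Hapln1 was called between late and ch+. With the HL60 late libraries alone 6 members were called lower and 8 higher, and 8 of the 14 calls were shared. In that fit 6.45% of all genes were called lower, and the share called higher is not given here. Col9a1 (1.74, limma adjusted p = 0.0669) and Col9a2 (1.74, adjusted p = 0.037) were then called higher than in ch+, as were Chad, Cilp, Cnmd and Clec3a, while the calls of Col2a1 (−0.23, adjusted p = 0.756), Fgfr3, Trpv4, Papss2, Slc26a2 and Chst11 were lost. The falls were then 3.05-fold for Col11a1 and 2.98-fold for Col11a2. Calls were gained for Comp without any 1 HL60 late library (limma adjusted p 0.0427 to 0.0908), for Wwp2 without HL60 ch+ 525 (−0.55, adjusted p = 0.0423) or 5 other libraries, for Chad without ML1 late 581 (1.54, adjusted p = 0.0309), ML1 late 583 or HL60 ch+ 523, and for Cilp without HL60 ch+ 523 (1.10, adjusted p = 0.086). The unlogged values of the late libraries summed to less, at 7264989 to 9022185 against 11208179 to 12648004 in ch+. With every library rescaled to the same total, the median of all genes moved from 0.02 to 0.63, and 6 members were called lower and 16 higher. The shares of all genes called after rescaling are not given here, so these counts cannot be set against them.

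**Figure D4:**
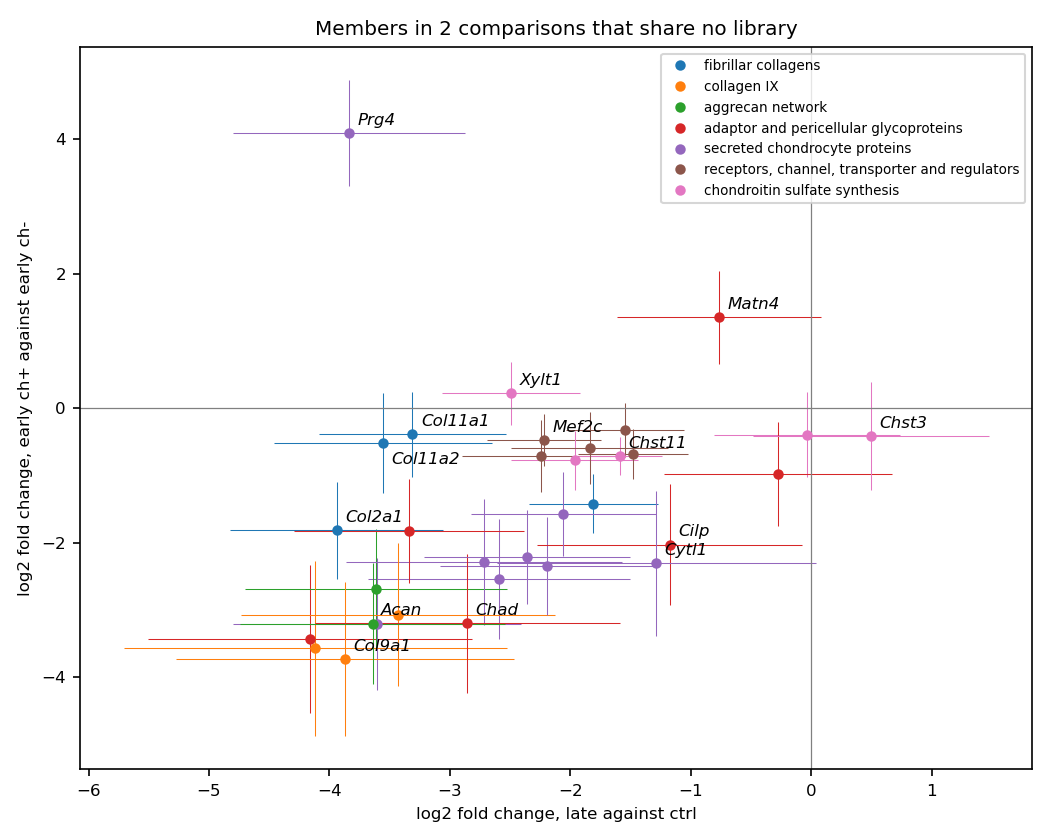
Log2 difference of late against ctrl (horizontal axis) and of early ch+ against early ch- (vertical axis) for each tested member, with 95% intervals; these comparisons share no library. Collagen IX, Acan, Matn3 and Cnmd are low on both axes, Col11a1 and Col11a2 are low on the horizontal axis and near 0 on the vertical, and Prg4 is low on the first and high on the second.

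The early pattern was found with both cell lines. With HL60, 20 members were called lower and 1 higher in ch+ than in ch-, where 1.66% of all genes were called lower and 2.27% higher. With ML1, 23 were called lower and 2 higher, where 1.91% and 2.34% of all genes were. Prg4 was higher by 4.25 with HL60 (limma adjusted p = 2.05e-10) and by 3.93 with ML1 (adjusted p = 9.63e-10), and Col9a1 lower by −3.43 (adjusted p = 0.00182) and −4.04 (adjusted p = 0.000285). The collagen XI chains were called with ML1 (Col11a1 −0.43, limma adjusted p = 0.0567 and Col11a2 −0.61, adjusted p = 0.0219) and not with HL60 (−0.35, adjusted p = 0.18 and −0.43, adjusted p = 0.172). Mef2c was called with each line (−0.53 and −0.43, limma adjusted p = 0.0229 and 0.0874). The test of the difference between the lines called 0 members, where 0.00771% of all genes were called. Of the 33 tested members 2 had an unadjusted p under 0.05, Cytl1 (a difference of 2.40) and Cilp (1.53), against 831 of all 12976 genes. Within ch+ cells 0 members were called between HL60 and ML1 (all genes 0.0154%). There 2 members had an unadjusted p under 0.05, Col27a1 and Fgfr3, against 988 of all genes. Within ch- cells 0 were called as well (all genes 0.0539%). There 2 had an unadjusted p under 0.05, Xylt1 and Csgalnact1, against 885 of all genes. In each of these tests the share of members under 0.05 was no larger than that of all genes.

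In late cells the cell lines differed. All 33 tested members were higher with HL60 than with ML1 in their mean, with a median of 1.35, and 15 were called higher, where 3.16% of all genes were called higher. The called differences ran from 1.13 for Fgfr3 (limma adjusted p = 0.0182) to 2.62 for Col9a3 (adjusted p = 0.0396). Col11a1 (2.23, limma adjusted p = 1.85e-13) and Col11a2 (2.58, adjusted p = 4.94e-13) were the most clearly apart, at 13.11 to 13.48 against 10.92 to 11.27 for Col11a1. Col27a1 did not follow (0.12, limma adjusted p = 0.974), and Acan (1.16, adjusted p = 0.417) and Col9a1 (1.94, adjusted p = 0.145) were not called. The count was 9 without HL60 late 397 or 398 and 8 without ML1 late 583. The conflict in the labels applies to all 3 ML1 late libraries.

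**Figure D5:**
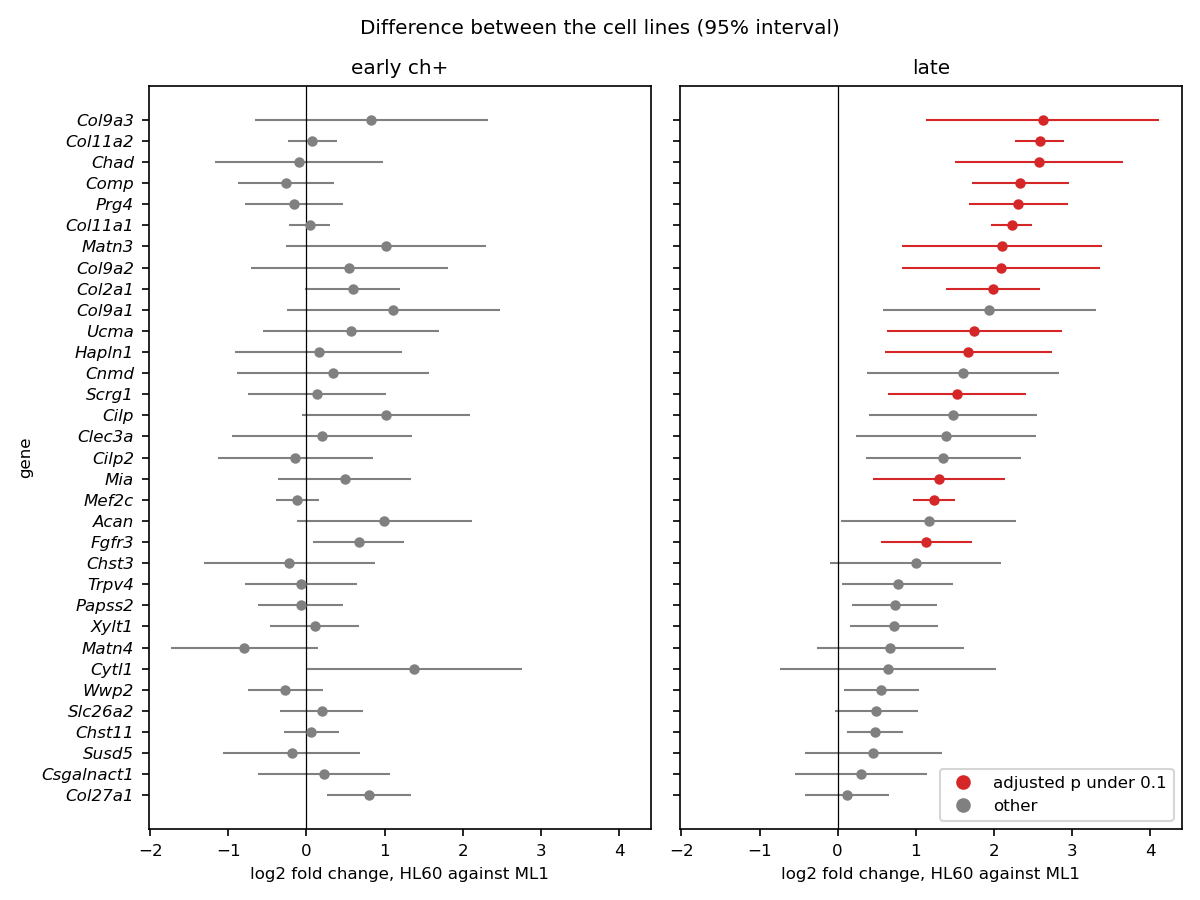
Log2 difference of HL60 against ML1 for each tested member in early ch+ and in late cells, with 95% intervals and red for an adjusted p under 0.1. In ch+ no member is red, and in late all points are above 0 and 15 are red.

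Markers of other cells moved with these groups, and their part in the results was not tested. The 7 osteoblast markers, all past the filter, averaged 14.14 to 14.37 per ctrl library and 10.38 to 13.04 per late library, with 13.96 to 14.29 for ch- and 13.68 to 13.99 for ch+. In late against ctrl 6 of the 7 were called lower, and in late 7 of 7 were called higher with HL60 than with ML1, as Col11a1 and Col11a2 were. In ch+ against ch- 0 were called, but all 7 were lower in ch+ in their mean (median −0.28, lowest −0.65). That fit shares the spread of the late libraries, whose osteoblast means had an SD of 1.28, against 0.10 in ch+. With ML1 alone 1 osteoblast marker was called lower in ch+, where 1.91% of all genes were, and with HL60 alone 0. The 6 smooth muscle markers, all past the filter, averaged 7.74 to 8.42 per ch+ library and 9.23 to 9.99 per ch- library (ctrl 9.26 to 10.75, late 8.60 to 9.31), with 5 of 6 called lower in ch+ than in ch-. Red cell markers (7 of 7 past the filter) averaged 8.21 to 9.52 per ch+ library and 8.47 to 9.18 per ch- library (ctrl 4.82 to 5.65, late 3.54 to 3.91). Blood cell markers (6 of 7, Cd79a below) averaged 5.71 to 6.80 per ch+ library and 5.83 to 7.01 per ch- library (ctrl 3.43 to 4.08, late 2.86 to 3.42). Of the red cell and blood cell markers limma called 0 between ch+ and ch- (0 at an unadjusted p under 0.05), and with HL60 alone 1 blood cell marker was called higher in ch+. The 6 CAR cell markers averaged 11.41 to 12.08 per ctrl library and 11.50 to 12.54 per ch- library. They averaged 12.18 to 12.77 per ch+ library and 12.59 to 13.03 per late library. Against ctrl, 5 of 6 were called higher in ch+ and in late, and the share of all genes called higher is not given here. In ch- 0 were called against ctrl, but all 6 were above it in their mean. Of these, 5 had an unadjusted p under 0.05 by limma, against 1549 of all 12976 genes. Between ch+ and ch- 1 of the 6 was called, higher in ch+, where 3.58% of all genes were. Skeletal muscle markers (4 of 5, Myh4 below) had a mean of 2.40 to 3.56 in ctrl and 4.25 to 5.82 in ch+, with 0 called between ch+ and ch- over both lines (2 at an unadjusted p under 0.05). With ML1 alone 2 of the 4 skeletal muscle markers were called higher in ch+ (median over the 4 of 1.65), and with HL60 alone 0 (median 0.05). Of the tenocyte and fibroblast markers, the defining Scx and Tnmd were below the filter. The 7 chondrocyte markers, of which 6 are members, averaged 6.73 to 9.64 per ch+ library and 10.22 to 11.74 per ch- library (ctrl 11.25 to 12.31, late 6.90 to 9.30).

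Compared per kilobase of exon, the order of the members changed. In ctrl the highest log2 levels per kilobase were those of Prg4 (14.76), Col2a1 (13.17), Chad (12.01), Col11a1 (11.81) and Col11a2 (11.54). In ch+ they were Prg4 (16.14), Col11a1 (11.21), Col11a2 (10.86), Col2a1 (10.46) and Chad (8.20), so that collagen XI stood above collagen II. In late the order was Prg4 (11.36), Chad (9.80), Col2a1 (9.49), Col11a1 (8.89) and Col11a2 (8.50).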

How the data were processed

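RNA from 21 libraries of sorted cells was amplified and sequenced. Per the labels, the authors aligned reads with STAR 2.5.1b to mm10, counted with RSEM 1.2.29 and normalized with DESeq2 1.10.1. The deposited values are regularized log2 values, from −2.33 to 22.44. Read totals and raw counts were not used here, so no count test was run and limma took its place. In the methods of the study, the authors name strand-specific reads, another DESeq2 version and a log10 transformation. Values up to 22.44 were read as log2.

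Genes with a mean regularized log2 value of at least 3.32 (the log2 of 10) were tested in R 4.3.3 with limma 3.58.1. Its trend option and Benjamini-Hochberg adjustment were used, in a model of 4 groups, or of 7 groups where cell lines were compared. An adjusted p under 0.1 was called. The fit was tested on simulated data. Other filters, thresholds, scalings, fits of only the groups compared and leaving out each library were tried. Tables were handled with Python 3.11.15 and pandas 2.3.3.

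The members and gene lists were chosen with earlier results of these data known. Full values are given for members called in ch+ against both ctrl and ch-, and for all collagen chains. Of other lists the extremes in ch+ against ch- and the SOX genes are named. Promoter windows are from RefSeq (GRCm38.p6).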

Additional observations from a re-analysis of the deposited data

Results flagged for a closer look

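In 5 of 102 groups of 6 libraries, 1 library stood apart by Dixon's test, about as many as chance gives at 1 in 20. These were Matn1 in HL60 early ch+ 523 at 2.85, Cytl1 in HL60 early ch- 529 at 3.86, Trpv4 in ML1 early ch- 544 at 6.78, Chst11 in HL60 early ch- 527 at 11.37 and Cilp in HL60 early ch- 529 at 6.55.

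In late cells, 15 members were higher with HL60 than with ML1 at an adjusted p under 0.1 by limma. The log2 differences were 2.62 for Col9a3, 2.58 for Col11a2, 2.58 for Chad, 2.34 for Comp, 2.31 for Prg4, 2.23 for Col11a1, 2.10 for Matn3 and 2.09 for Col9a2. They were 1.99 for Col2a1, 1.75 for Ucma, 1.67 for Hapln1, 1.53 for Scrg1, 1.30 for Mia, 1.23 for Mef2c and 1.13 for Fgfr3. The treatment field of the ML1 libraries conflicts with their titles, and how far this bears on the differences was not tested.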

How the results depend on the processing

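No paired analysis was possible because no label ties a ch+ library to a ch- library of 1 mouse. Of members called in ch- against ctrl there were 2, but 1 at an adjusted p under 0.05, with no filter, with quantile normalization or without the trend, 4 with only those groups fitted, and 1 to 2 leaving out 1 library. In late against ch+ 14, most of them lower, became 22, most of them higher, after rescaling to equal totals. That rescaling moved the median of all genes as well, from 0.02 to 0.63. Shares of all genes called in the refits of this paragraph are not given, so the changed counts cannot be set against them. Between HL60 and ML1 in late 15 became 8 with no filter, 10 at 0.05, 11 after rescaling and 8 to 17 leaving out 1 library. Leaving out 1 library gave 27 to 29 in late against ctrl, 21 to 25 in ch+ against ctrl, 23 to 24 in ch+ against ch-, 13 to 15 in late against ch+, 16 to 23 with HL60 and 19 to 25 with ML1.

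Signs turned for weak differences, and the cause was not tested. In late against ctrl these were Csgalnact1 (0.66 rescaled, 0.12 with HL60 late alone, −0.22 to 0.28 leaving out 1 library), Cilp2 (0.41 rescaled, 0.40 with HL60 late alone) and Chst3 (−0.0008 to 0.81 leaving out 1). In ch- against ctrl they were Col11a1 (0.15 with quantile normalization), Cilp (−0.014 rescaled, −0.044 to 0.28 leaving out 1), Csgalnact1 (−0.23 to 0.27), Chst3 (−0.59 to 0.22), Matn4 (−1.16 to 0.026) and Scrg1 (−0.39 to 0.12). In late against ch+ they were Hapln1 (0.27 rescaled, 0.49 with HL60 late alone), Comp (0.40 with HL60 late alone), Wwp2 (0.17 rescaled), Matn3 (−0.31 to 0.54), Col9a3 (−0.19 to 0.72) and Mia (−0.015 to 0.39). The late group of HL60 alone was chosen after seeing the data.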

Other observations

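The genes with the course most like that of Col11a1 over the 21 libraries, by the root mean square difference of their log2 deviations, were Col11a2 (0.18), Car3 (0.20), Col1a1 (0.24), Col24a1 (0.25) and Bglap3 (0.25), with Col1a1 the main collagen of bone and Bglap3 a relative of osteocalcin. For Col9a1 they were Col9a3 (0.39), Cnmd (0.42), Matn3 (0.43), Col9a2 (0.57) and Acan (0.61), all of them members. For Prg4 they were F13a1 (0.58), Htra4 (0.64), Clic5 (0.68), Sv2c (0.78) and Itga6 (0.83), none of them a member. F13a1, a subunit of coagulation factor XIII, was higher in ch+ than in ch- by 3.08 (limma adjusted p = 5.01e-07). Profiles across these libraries share the same groups and are given as a description.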
